A study of Mus musculus with 12 samples.

Results

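Surfactant and alveolar type 2 genes were followed in RNA from mouse lung tumors. The 10 genes were Sftpa1, Sftpb, Sftpc, Sftpd, Abca3, Lamp3, Napsa, Lpcat1, Slc34a2 and Nkx2-1, found by symbol among the 39017 genes of the count table, and all 10 passed the filter on low counts that left 16527 genes. They are known genes of the type 2 cell. The rule that picks them uses no measured value, but the list was chosen with earlier results of these data known. The series holds 12 macrodissected tumors in 4 groups of 3, collected 26 weeks after initiation and depleted of CD45-positive immune cells.

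All mice were C57BL/6 with K-ras LSL-G12D/WT and p53 Fl/Fl alleles (KP) and a CCSP-rtTA transgene, and all received 6000 units per mouse of Lenti.TRE-PPARaD13_PGK-Cre, a lentivirus that carries Cre and a doxycycline-inducible, dominant negative form of mouse PPARα. The KP group had wild-type Glut1 and a regular diet, and the KP_PPARaDN group had the same genotype and a doxycycline diet of 625 mg/kg for 15 days. The KPG1 group had Glut1 Fl/Fl alleles and a regular diet, and the KPG1_PPARaDN group had these alleles and the doxycycline diet. Doxycycline itself and the induced protein cannot be told apart, since no group had one without the other. The CCSP promoter that drives rtTA is a club cell promoter and the PGK promoter that drives Cre is active in most cells, so the inducer and the recombinase need not be in the same cells. The paper reports that the construct was functional in tumors of both genotypes. It bases this on bile acid, fatty acid and peroxisome pathways that were repressed relative to tumors of mice without doxycycline. By a number in the labels that appears to name the mouse, the tumors came from 9 mice, with 2, 3, 2 and 2 mice in KP, KP_PPARaDN, KPG1 and KPG1_PPARaDN, so that p-values over tumors partly measure the spread within a mouse. KP tumors were all from females and KPG1 tumors all from males, whereas KP_PPARaDN had 1 from a female and 2 from males and KPG1_PPARaDN had 2 and 1.

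Type 2 cells make and store surfactant, the film of lipid and protein that lowers surface tension in the alveoli, and they can be a cell of origin of lung adenocarcinoma. Surfactant is assembled in lamellar bodies, where the hydrophobic proteins SP-B and SP-C join phospholipid, and SP-A and SP-D are secreted collectins that bind lipid and microbes. The transcription factor NKX2-1 binds and activates promoters of several of these genes, and mouse lung adenocarcinomas that lose it take on gastric features.

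The upstream parts of 4 promoters are shown because these genes stand for the main patterns below, the abundant surfactant proteins and the pair Lamp3 and Slc34a2. The letters are the 250 bases before the RefSeq start in GRCm38.p6, in the direction of transcription, from chr14:41131538-41131787 on the plus strand for Sftpa1, chr6:72304360-72304609 on the plus strand for Sftpb, chr16:19706366-19706615 on the minus strand for Lamp3 and chr5:53049103-53049352 on the plus strand for Slc34a2. Capitals mark matches, on either strand, to an NKX2-1 core (CTCAAG), a forkhead core (TGTTTNC) or a PPAR half-site (AGGTCA), none of which overlapped another here.
Sftpa1: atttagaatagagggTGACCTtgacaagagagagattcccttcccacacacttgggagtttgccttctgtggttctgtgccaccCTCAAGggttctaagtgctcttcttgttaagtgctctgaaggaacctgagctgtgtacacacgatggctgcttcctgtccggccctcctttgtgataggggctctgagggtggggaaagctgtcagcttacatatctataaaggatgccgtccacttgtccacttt
Sftpb: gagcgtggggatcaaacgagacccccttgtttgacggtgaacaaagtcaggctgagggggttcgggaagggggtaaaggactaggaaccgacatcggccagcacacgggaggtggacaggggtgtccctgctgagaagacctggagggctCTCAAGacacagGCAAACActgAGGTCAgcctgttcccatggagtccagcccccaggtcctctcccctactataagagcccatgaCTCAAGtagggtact
Lamp3: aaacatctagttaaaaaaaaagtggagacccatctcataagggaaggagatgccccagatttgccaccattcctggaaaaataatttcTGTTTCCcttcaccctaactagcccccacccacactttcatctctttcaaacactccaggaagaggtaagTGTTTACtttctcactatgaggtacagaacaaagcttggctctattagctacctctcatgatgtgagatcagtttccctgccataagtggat
Slc34a2: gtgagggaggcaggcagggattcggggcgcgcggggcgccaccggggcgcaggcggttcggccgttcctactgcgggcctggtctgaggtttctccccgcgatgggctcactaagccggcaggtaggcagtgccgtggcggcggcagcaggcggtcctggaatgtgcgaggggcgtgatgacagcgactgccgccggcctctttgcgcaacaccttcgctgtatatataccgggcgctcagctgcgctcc

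Promoters of 7 of the 10 genes were found in the table (those of Sftpa1, Sftpb, Abca3, Lamp3, Lpcat1, Slc34a2 and Nkx2-1). The NKX2-1 core was in 2 of these 7, once in Sftpa1 and 2 times in Sftpb, against 13.3% of the 32851 promoters of the table. The forkhead core was in Sftpb and Lamp3 (17.8% of all promoters) and the PPAR half-site in Sftpa1 and Sftpb (14.0%). In Sftpb the matches lay close together, with a forkhead core 82 to 88 bases and an NKX2-1 core 95 to 100 bases before the start. No match to these letters was in the windows of Abca3, Lpcat1, Slc34a2 and Nkx2-1. The Slc34a2 window lies before a RefSeq start inside the gene, which GENCODE places at chr5:53038081-53071664.

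Each library held 25263794 to 32654223 counted reads, so counting error is small for these genes beside the differences from tumor to tumor. Tumors of a group differed far beyond counting noise (chi-square per degree of freedom 83.9 to 302.3). Levels are given in CPM, counts scaled to library size with TMM factors, and comparisons between genes in TPM, which also divides by exon length. Groups are named as labelled. Slc2a1, the gene of Glut1, was at 30.2 to 64.0 CPM in KPG1 and 35.3 to 57.7 CPM in KP, and gene counts do not separate the floxed exons from the others. Ppara, which the mouse transgene would add to, was at 64.6 and 246 CPM in KP_PPARaDN replicates 2 and 3 but at 2.71 CPM in the library labelled KP_PPARaDN replicate 1, below all 6 regular diet tumors (7.24 to 15.7 CPM). It was at 8.90, 19.2 and 17.7 CPM in KPG1_PPARaDN, with the last 2 of these above all 6 regular diet tumors by a small margin, so that each direction below rests on the labels.

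Transcripts of all 10 type 2 genes were found in every tumor sample. Bulk RNA does not show which cells they came from, and the series holds no normal lung for reference. Sftpc, the gene of surfactant protein C, had the highest mean TPM of the 37693 genes with a length, at 52121 TPM ± 24535 (SD, n = 12), and Sftpb was next at 27003 TPM ± 9377. Sftpa1 ranked 5 at 5854 TPM ± 2375, Slc34a2 ranked 18 at 2701 TPM ± 1309 and Sftpd ranked 23 at 2290 TPM ± 1118. The other members lay lower in this order, from Lamp3 at 770 TPM ± 382 over Lpcat1 at 667 TPM ± 170, Abca3 at 501 TPM ± 185 and Napsa at 453 TPM ± 215 to Nkx2-1 at 365 TPM ± 133. Together the 10 genes took 2.463% of the counts in the tumor where they took least (KP_PPARaDN replicate 1) and 6.960% where they took most (KPG1 replicate 2), and the 4 surfactant protein genes alone took 2.025% to 6.009%. No member fell below 92.4 CPM in any tumor, the value of Napsa in KPG1_PPARaDN replicate 2. Epithelial markers were high in each tumor, with Cdh1 at 558 to 1306 CPM and Epcam at 298 to 623 CPM, while the T cell gene Cd3e was at 0.241 CPM or less and Ptprc, the gene of CD45, was at 1.88 to 31.5 CPM.

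**Figure D1:**
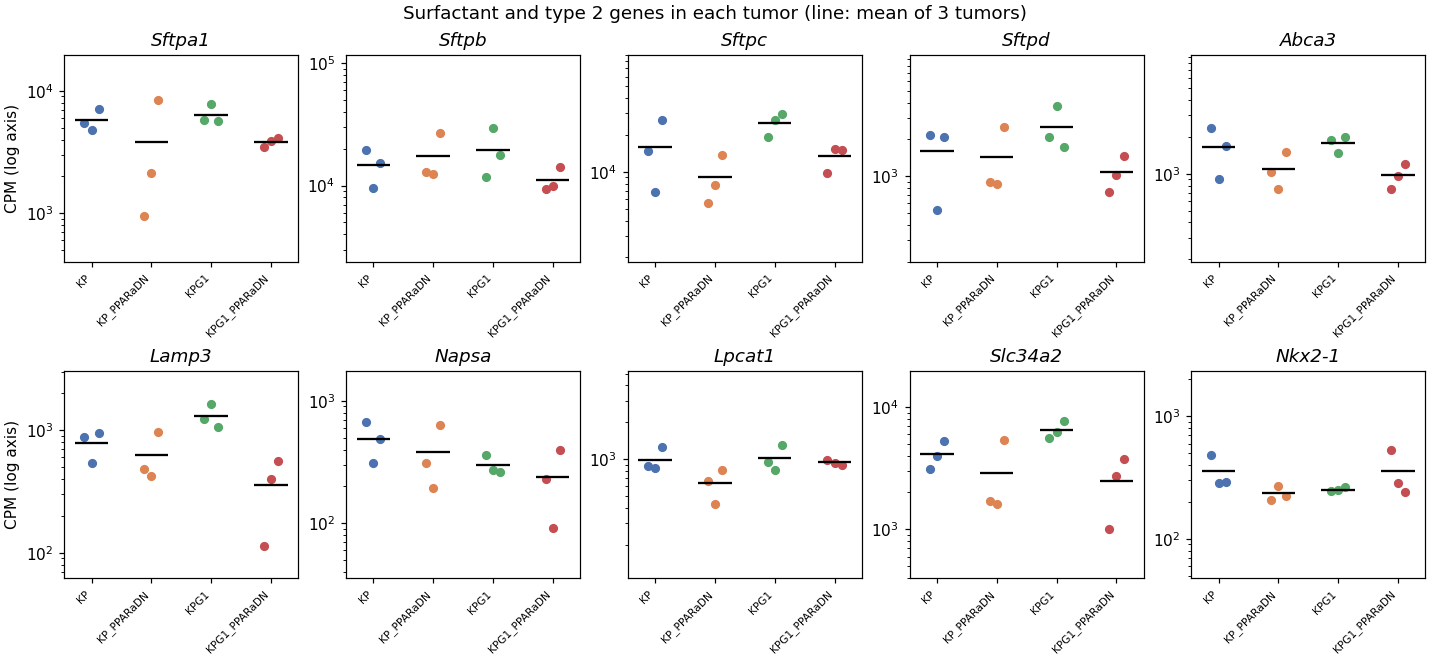
CPM of each of the 10 genes (log axis, 1 panel per gene, each spanning the same fold range) in the 4 groups, with 1 point per tumor and a line at the mean of 3 tumors. Lamp3 and Slc34a2 show the 3 KPG1 tumors above the 3 KPG1_PPARaDN tumors, whereas Nkx2-1 spans 208 to 533 CPM with no such order.

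The genes of the secreted and hydrophobic surfactant proteins varied widely between tumors. Sftpc was at 14879, 6907 and 26488 CPM in KP, 5540, 7819 and 13844 CPM in KP_PPARaDN, 19367, 26491 and 29952 CPM in KPG1 and 9798, 15385 and 15077 CPM in KPG1_PPARaDN. All KPG1 tumors lay above all KPG1_PPARaDN tumors, and the KP and KP_PPARaDN tumors overlapped. Sftpb, whose protein is required for lamellar body formation, was at 19441, 9626 and 15183 CPM in KP, 12898, 12444 and 27052 CPM in KP_PPARaDN, 11706, 29547 and 17765 CPM in KPG1 and 9389, 9905 and 14121 CPM in KPG1_PPARaDN. Its groups overlapped throughout, and its highest values were in KPG1 replicate 2 and KP_PPARaDN replicate 3.

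Sftpa1, the single mouse gene of surfactant protein A, had its lowest and its highest value in the same group. It was at 942, 2113 and 8358 CPM in KP_PPARaDN, against 5415, 4797 and 7049 CPM in KP, 5762, 7786 and 5621 CPM in KPG1 and 3456, 3882 and 4081 CPM in KPG1_PPARaDN. The 3 KPG1_PPARaDN tumors lay close together and below all 6 regular diet tumors. Of all genes, 4.74% were lower in KPG1_PPARaDN without overlap with KP and 9.41% without overlap with KPG1, and the share for both at once was not counted. Sftpd, the gene of surfactant protein D, was at 2178, 527 and 2102 CPM in KP, 897, 871 and 2529 CPM in KP_PPARaDN, 2093, 3718 and 1734 CPM in KPG1 and 739, 1022 and 1471 CPM in KPG1_PPARaDN. KP replicate 2 held the lowest Sftpd of the series and stood apart from the other two KP tumors, and KPG1_PPARaDN lay below KPG1 without overlap.

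Genes of lamellar body membranes and processing came next. Abca3, the lipid transporter that fills lamellar bodies, was at 2385, 903 and 1679 CPM in KP, 1032, 746 and 1495 CPM in KP_PPARaDN, 1869, 1476 and 1996 CPM in KPG1 and 746, 966 and 1205 CPM in KPG1_PPARaDN. KPG1 and KPG1_PPARaDN did not overlap, and KP replicate 2 was again low in its group. Lamp3, the lysosome-associated membrane protein DC-LAMP that marks lamellar bodies, was at 880, 537 and 941 CPM in KP, 485, 420 and 962 CPM in KP_PPARaDN, 1233, 1641 and 1056 CPM in KPG1 and 114, 401 and 556 CPM in KPG1_PPARaDN. It varied most of the 10, by 14.4-fold between KPG1 replicate 2 and KPG1_PPARaDN replicate 1. Napsa, the aspartic protease napsin A that cleaves surfactant protein precursors, was at 670, 310 and 488 CPM in KP, 309, 195 and 632 CPM in KP_PPARaDN, 361, 273 and 264 CPM in KPG1 and 231, 92.4 and 396 CPM in KPG1_PPARaDN, with overlap between every pair of groups.

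Lpcat1, the acyltransferase that makes dipalmitoyl phosphatidylcholine, was at 877, 848 and 1252 CPM in KP, 665, 427 and 812 CPM in KP_PPARaDN, 948, 813 and 1299 CPM in KPG1 and 977, 938 and 903 CPM in KPG1_PPARaDN. All KP_PPARaDN tumors lay below all tumors of the other groups, by a margin of 1 CPM to the lowest KPG1 tumor. Of all genes, 6.70% were lower without overlap in KP_PPARaDN than in KP, and 10.3% were higher in KPG1_PPARaDN than in KP_PPARaDN. The share that lay below all other groups at once was not counted. Slc34a2, the sodium-phosphate cotransporter of the type 2 cell, was at 3119, 3957 and 5286 CPM in KP, 1690, 1611 and 5406 CPM in KP_PPARaDN, 5534, 6236 and 7681 CPM in KPG1 and 1012, 2707 and 3730 CPM in KPG1_PPARaDN. The 3 KPG1 tumors were the 3 highest of the series, and the share of all genes with this order was not counted.

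Nkx2-1, the transcription factor, was the least abundant by TPM. It was at 487, 284 and 293 CPM in KP, 208, 272 and 224 CPM in KP_PPARaDN, 245, 249 and 263 CPM in KPG1 and 533, 288 and 243 CPM in KPG1_PPARaDN. Its highest value was in KPG1_PPARaDN replicate 1, the tumor with the lowest Sftpb, Lamp3 and Slc34a2 of the series and an Abca3 level of 746 CPM, its lowest as well. It varied 2.56-fold over the 12 tumors, the narrowest range of the 10.

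The spread of the surfactant genes was wide for genes of this abundance. Among the 2560 genes with a mean of at least 100 CPM, the median SD of log2 CPM over the 12 tumors was 0.326, while it was 1.02 for Lamp3, 0.900 for Slc34a2, 0.884 for Sftpa1, 0.843 for Sftpd and 0.795 for Sftpc, which placed these 5 between the 93.5 and 96.7 percentiles. Napsa had an SD of 0.778, Abca3 of 0.564 and Sftpb of 0.552, at the 93.1, 86.6 and 85.8 percentiles. Nkx2-1 and Lpcat1 had an SD of 0.415 each, at the 70.1 and 70.2 percentiles. The pooled within-group SD was 0.821 for Sftpa1, 0.822 for Sftpd, 0.736 for Lamp3, 0.732 for Slc34a2 and 0.639 for Sftpc, against a median of 0.313 for the same 2560 genes. The median absolute difference over the members was 0.41 to 0.89 log2 units in the 3 pairs of tumors from the same mouse and 0.36 to 1.16 in the 9 pairs of a group from different mice, so that these ranges overlapped.

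Ordered by the mean departure of the 10 genes from their own means, the tumors ran from +0.61 log2 units in KPG1 replicate 2 to -0.71 in KP_PPARaDN replicate 2. All 3 KPG1 tumors (0.34, 0.61 and 0.48) and KP replicates 1 and 3 (0.45 and 0.50) were above the mean, as was KP_PPARaDN replicate 3 (0.47). KP replicate 2 (-0.35), KP_PPARaDN replicates 1 and 2 (-0.70 and -0.71) and KPG1_PPARaDN replicates 1 and 2 (-0.68 and -0.41) were below it, and KPG1_PPARaDN replicate 3 was at 0.00. No member was above its own mean in KP_PPARaDN replicates 1 and 2, whereas all 10 were in KP replicate 3. In bulk RNA, fewer type 2-like cells and less of these transcripts per cell cannot be told apart.

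**Figure D2:**
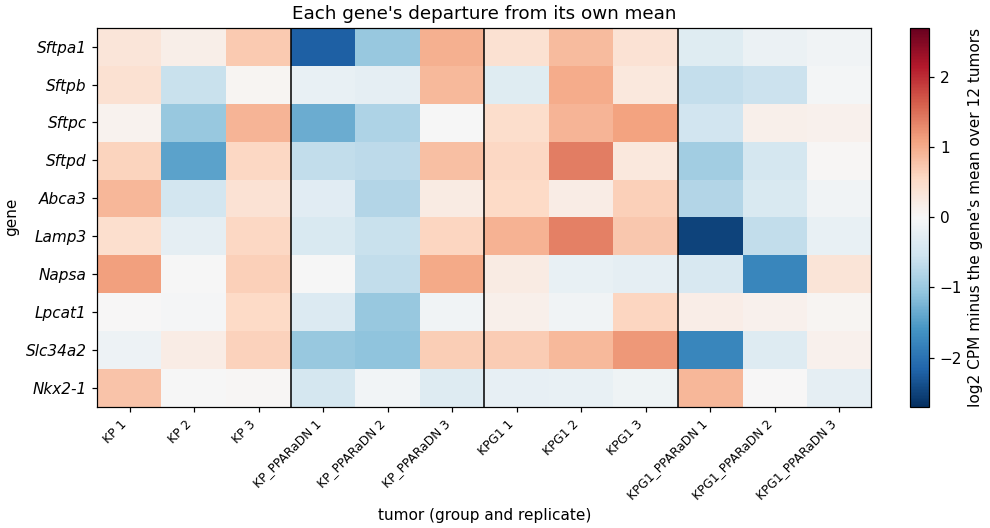
Log2 CPM of each gene minus its own mean over the 12 tumors (color), with genes in rows and tumors in columns by group. KP_PPARaDN replicates 1 and 2 are low in all 10 genes, KP_PPARaDN replicate 3 is high in 7, and in KPG1_PPARaDN replicate 1 Lamp3 and Slc34a2 are lowest while Nkx2-1 is highest.

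The question that the design puts first is whether induction of dominant negative PPARα changed the tumors, in KP and in KPG1. In KP, edgeR's quasi-likelihood test called 0 of the 10 genes at an adjusted p under 0.05, where 0.00605% of all genes tested were called, and limma voom and DESeq2 called 0 as well. At an unadjusted p under 0.05 it was 1 of 10, against 11.4% of all genes. The members' median log2 fold change was -0.55, with 9 below 0 and 1 above, beside a median of -0.01 over all genes. Lpcat1 had the smallest p-value (log2 fold change -0.64, SE 0.279, adjusted p = 0.417), and Sftpc had the largest difference at -0.83 with a 95% interval from -1.94 to 0.28. Sftpb was the member above 0, at 0.24 (interval -0.77 to 1.26). Lpcat1 and Nkx2-1 were lower in all 3 KP_PPARaDN tumors without overlap, 2 of 10 members against 6.7% of all genes in that direction. KP_PPARaDN replicate 3 decided much of this comparison: without it all 10 were below 0, the median was -0.88 and Sftpa1, Sftpc, Abca3, Lpcat1 and Slc34a2 had an unadjusted p under 0.05. This is the tumor with the highest Ppara of the series (246 CPM), and a relation of the members to Ppara was not tested. The summed CPM of 7 fibroblast genes was 318 to 569 in KP_PPARaDN and 127 to 283 in KP, and its part in the result was not tested. Without KP_PPARaDN replicate 1, the library whose Ppara goes against its label, 8 were below 0 and 0 had such a p. The shares of all genes with such a p in the fits with a tumor left out are not given here. Whether these counts are particular to the members can therefore not be read from them.

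In KPG1, again none of the members passed the adjusted threshold in edgeR. The test called 0 of 10 (0.00605% of all genes), limma voom called 0, and DESeq2 called Lamp3, where it called 1.39% of the genes to which it gave an adjusted p. At an unadjusted p under 0.05 there were 3 members (10.8% of all genes), Lamp3, Slc34a2 and Abca3. The median of the members was -0.85, with 9 below 0 and 1 above, beside 0.02 over all genes. Lamp3 had a mean of 357 CPM ± 225 (SD, n = 3) in KPG1_PPARaDN and 1310 CPM ± 300 in KPG1, a log2 fold change of -1.88 (SE 0.517, 95% interval -3.01 to -0.74, adjusted p = 0.42 by edgeR and 0.0280 by DESeq2). Slc34a2 was at 2483 CPM ± 1373 against 6484 CPM ± 1095, a log2 fold change of -1.38 (interval -2.58 to -0.19, adjusted p = 0.426). Abca3 differed by -0.87 (interval -1.68 to -0.06), Sftpd by -1.22 (interval -2.49 to 0.05), Sftpc by -0.91 (interval -2.03 to 0.20) and Sftpb by -0.82 (interval -1.84 to 0.20). Lpcat1 was at 939 CPM ± 37.0 against 1020 CPM ± 251, a log2 fold change of -0.12 with an interval of -0.73 to 0.49, and Nkx2-1 was the member above 0, at 0.49 (interval -0.17 to 1.15).

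There were 6 members whose KPG1_PPARaDN tumors all lay below the KPG1 tumors, Sftpa1, Sftpc, Sftpd, Abca3, Lamp3 and Slc34a2, against 9.41% of all genes in that direction, and 0 members in the other direction. Lamp3 kept an unadjusted p under 0.05 whichever tumor was left out, with a log2 fold change of -2.35 to -1.45. Slc34a2 and Abca3 did not when KPG1_PPARaDN replicate 1 or 2 or KPG1 replicate 3 was left out, nor did Abca3 without KPG1 replicate 1. When sex was added to the fit, Lamp3 alone had such a p and the median was -0.64. For these alternative fits the shares of all genes with such a p are not given here. Markers of type 1 cells, the flat alveolar cells, lay lower with the members in this comparison: the summed CPM of the 10 genes of that list was 893 to 1428 in KPG1_PPARaDN and 1960 to 3030 in KPG1, with 8 of 10 below 0, and that of 8 club cell genes was 299 to 373 against 492 to 904, with 4 of 8 below 0. All 7 endothelial genes were below 0 as well (median -0.67), with sums of 116 to 171 CPM against 112 to 330 CPM. Their part in the result was not tested.

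**Figure D3:**
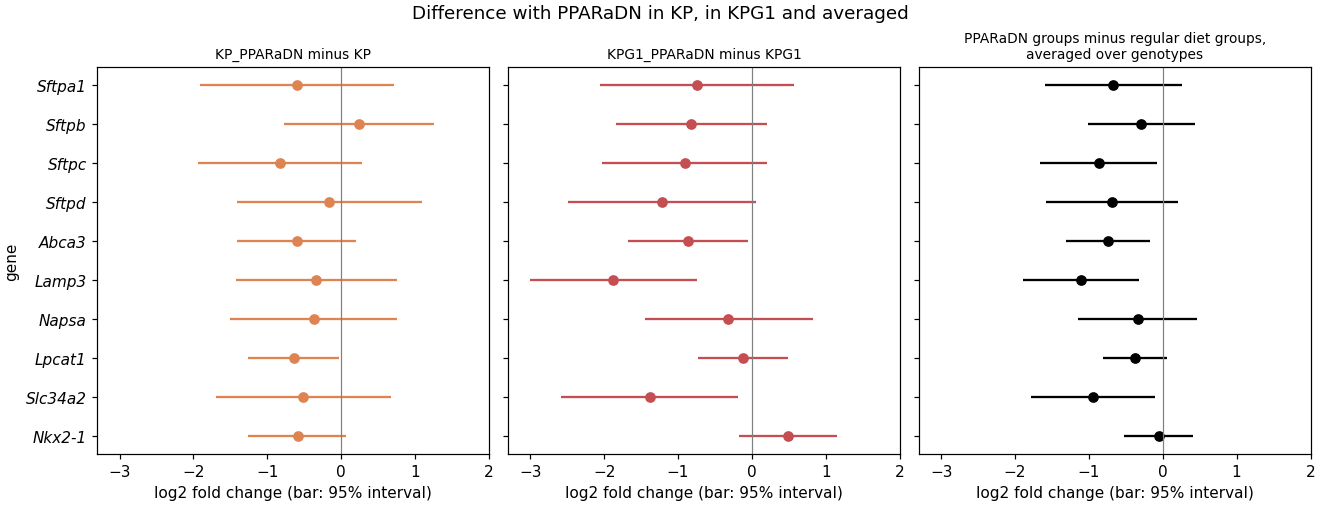
Log2 fold change of each gene (points) with its 95% interval (bars) from edgeR, for KP_PPARaDN minus KP, KPG1_PPARaDN minus KPG1 and the average over both genotypes. Most points lie left of 0, the Lamp3 interval in KPG1 reaches from -3.01 to -0.74, and Nkx2-1 lies at -0.59, 0.49 and -0.05.

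Whether the PPARaDN difference itself differed between genotypes was tested as an interaction, in which edgeR called 0 members and 0 of all genes (0%), limma voom called 0 members and DESeq2 called 0 members. At an unadjusted p under 0.05 there was 1 member, Nkx2-1, against 11.8% of all genes. Nkx2-1 was lower in KP_PPARaDN than in KP by -0.59 and higher in KPG1_PPARaDN than in KPG1 by 0.49, and the difference of the log2 fold changes was 1.08 (SE 0.426, adjusted p = 0.389). Lamp3 was lower with PPARaDN in both genotypes, by -0.34 in KP and -1.88 in KPG1. Its difference of the log2 fold changes was -1.54 (interval -3.10 to 0.02, adjusted p = 0.43). With sex as a covariate the sign of 5 members turned in this interaction and the median moved from -0.21 to 0.18.

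Averaged over both genotypes, all 10 members were lower in the groups labelled PPARaDN than in the regular diet groups, with a median of -0.68 beside 0.01 over all genes. edgeR called 0 of them (0.0182% of all genes), limma voom and DESeq2 also called 0, and 4 had an unadjusted p under 0.05 (10.1% of all genes). These were Lamp3 at -1.11 (SE 0.358, adjusted p = 0.356), Slc34a2 at -0.95 (SE 0.383, adjusted p = 0.44), Sftpc at -0.87 (SE 0.359, adjusted p = 0.449) and Abca3 at -0.74 (SE 0.260, adjusted p = 0.384). Sftpd was at -0.69, Sftpa1 at -0.67, Lpcat1 at -0.38, Napsa at -0.34 and Sftpb at -0.29, and Nkx2-1 was at -0.05 with an interval of -0.52 to 0.41. For no member did the 6 PPARaDN tumors all lie below the 6 regular diet tumors. Without KP_PPARaDN replicate 3, 7 members had an unadjusted p under 0.05, and without the library labelled KP_PPARaDN replicate 1 it was 2, Abca3 and Lamp3, with all 10 still below 0 in both cases. These were also the 2 without KP replicate 3, KP_PPARaDN replicate 2, KPG1 replicate 3 or KPG1_PPARaDN replicate 1. Shares of all genes with such a p in these fits are not given here, so the counts of members have no background beside them. This average uses the same tumors as both comparisons above and is not separate evidence.

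The other comparison of the study is the loss of Glut1. On a regular diet, edgeR called 0 members in KPG1 against KP (0.0363% of all genes), limma voom and DESeq2 called 0, and 0 had an unadjusted p under 0.05 (6.23% of all genes). The median was 0.28, with 8 members above 0 and 2, Napsa and Nkx2-1, below. Lamp3 was at 0.74 (interval -0.37 to 1.84), Slc34a2, Sftpc and Sftpd at 0.65 each, and Napsa at -0.71 (interval -1.85 to 0.43). Lamp3 and Slc34a2 were higher in all 3 KPG1 tumors without overlap, 2 of 10 against 4.82% of all genes. The KPG1 tumors are also the controls of KPG1_PPARaDN, so that these genes' values in both comparisons share them. These groups differ in sex as well as genotype, and the 2 cannot be told apart within them: with sex as a covariate over the 12 tumors the median was -0.06 and 6 members were below 0.

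On the doxycycline diet, edgeR called 0 members in KPG1_PPARaDN against KP_PPARaDN (0.0303% of all genes), limma voom and DESeq2 called 0, and 0 had an unadjusted p under 0.05 (9.69% of all genes). The median was -0.20, and it was 0.42 without KP_PPARaDN replicate 3. Lamp3 was at -0.80 (interval -1.91 to 0.30), Napsa at -0.66, Sftpb at -0.65, Lpcat1 at 0.57 and Sftpa1 at 0.00 with an interval of -1.31 to 1.31. Averaged over diets, edgeR called 0 members (0.0484% of all genes), limma voom and DESeq2 called 0, and 0 had an unadjusted p under 0.05 (4.53% of all genes). The median was 0.06, and Sftpc at 0.61 (interval -0.18 to 1.39) and Napsa at -0.68 (interval -1.49 to 0.12) were farthest from 0.

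Across the 4 groups the order of mean levels was most often KPG1, then KP, then the PPARaDN groups. KPG1 had the highest mean of 8 members and KP that of Napsa. Nkx2-1 had a mean of 355 CPM in both KP and KPG1_PPARaDN, the latter with replicate 1 at 533 CPM. Neighbors in the order of means mostly overlapped. The exceptions were KPG1 above KP for Lamp3 (1056 against 941 CPM at the closest tumors) and Slc34a2 (5534 against 5286), KP above KPG1_PPARaDN for Sftpa1 (4797 against 4081), KPG1_PPARaDN above KP_PPARaDN for Lpcat1 (903 against 812) and KP above KPG1 for Nkx2-1 (284 against 263). Each of the last 3 was 1 of 10 members, where 4.74%, 10.3% and 5.13% of all genes were without overlap in that direction.

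The other 9 members were correlated with each other from tumor to tumor. Among the 36 pairs of the 9 members other than Nkx2-1, a family added after the values were seen, Pearson's r of log2 CPM over the 12 tumors was above 0 in all 36, from 0.05 to 0.89 with a median of 0.59. By a two-sided permutation test of Pearson's r, with p-values adjusted over the 36 pairs, 15 passed 0.05, and 9 passed by both Pearson's r and Spearman's rho. Lamp3 and Slc34a2 had r = 0.89 (permutation p = 1.40e-04, adjusted p = 0.00504) and rho = 0.93 (permutation p = 7.00e-05, adjusted p = 0.00252), and r was 0.82 without the 2 tumors farthest from the median of Lamp3. Sftpb and Sftpd had r = 0.85 (permutation p = 5.20e-04, adjusted p = 0.00936) and rho = 0.87 (permutation p = 3.60e-04, adjusted p = 0.00648), and r was 0.76 without the 2 tumors farthest in Sftpb. With group means removed and values permuted within groups in an exact test, r was 0.84 for Lamp3 and Slc34a2 (adjusted p = 0.115) and 0.86 for Sftpb and Sftpd (adjusted p = 0.0722), and 0 of the 36 pairs passed.

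No relation of the other 9 with Nkx2-1 passed the test. Pearson's r with Nkx2-1 over the 12 tumors was -0.51 for Lamp3 (rho = -0.38, permutation p = 0.0997 and 0.220), -0.45 for Slc34a2 (rho = -0.34, permutation p = 0.132 and 0.288), -0.25 for Sftpb (rho = -0.34, permutation p = 0.454 and 0.288) and -0.03 for Sftpc (rho = 0.08, permutation p = 0.922 and 0.818), and the highest was 0.20 for Lpcat1 (rho = 0.45, permutation p = 0.501 and 0.141). Adjusted over the 9 relations, the smallest p was 0.595 for Pearson's r and 0.648 for Spearman's rho. Without the 2 tumors farthest from the median of Nkx2-1, KPG1_PPARaDN replicate 1 and KP replicate 1, r was -0.15 for Lamp3 and 0.12 for Slc34a2, so that these relations rested on those tumors, whereas it was -0.39 for Sftpb and -0.43 for Napsa. Without KPG1_PPARaDN replicate 1 alone, r was negative for 1 member and the lowest was -0.06. Without KP replicate 1 alone, 7 were negative and the lowest was -0.73. With 12 tumors and a narrow range of Nkx2-1 these values do not show that the relation is absent.

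**Figure D4:**
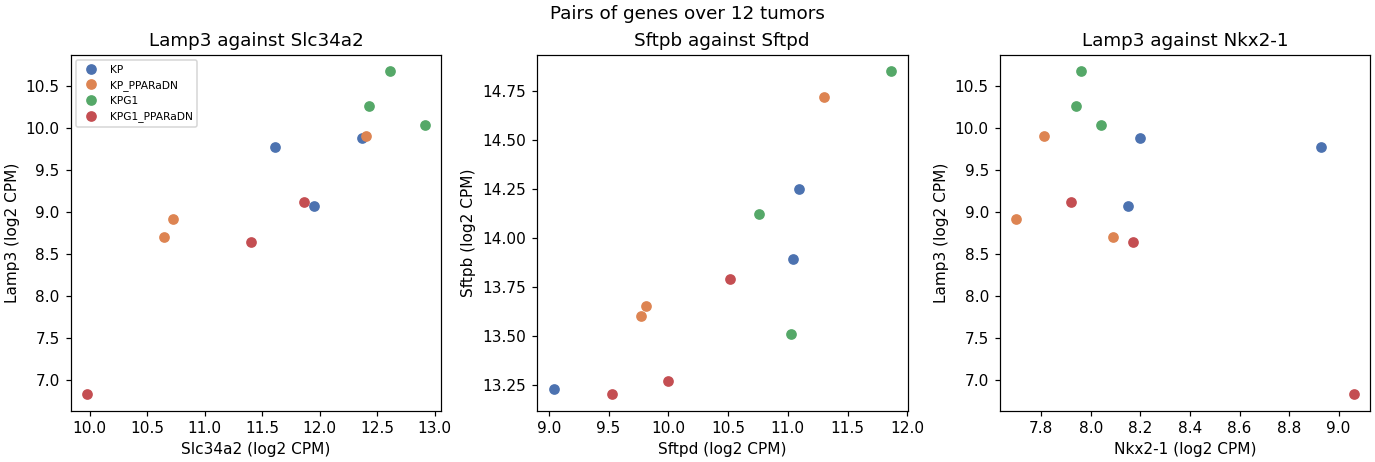
Log2 CPM of Lamp3 against Slc34a2, Sftpb against Sftpd, and Lamp3 against Nkx2-1, with 1 point per tumor colored by group. The first pair (r = 0.89) and the second (r = 0.85) lie along a diagonal, and in the third (r = -0.51) KPG1_PPARaDN replicate 1 lies alone at high Nkx2-1 and low Lamp3.

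Genes outside the list were ranked by their r with the mean log2 CPM of the 10 members over the 12 tumors, among the 14099 other genes whose mean reached 1 CPM, where the median r was -0.02. Closest were Ptgfrn and Hipk1 (r = 0.93), Etv5, Mlc1 and Ppp6r2 (r = 0.92). Etv5, an ETS factor that maintains type 2 cells, ranged from 111 to 311 CPM, and Mlc1, a membrane protein enriched in type 2 cells, from 37.2 to 230 CPM. At the other end were Strap (r = -0.92), Exoc6b (-0.91), Ninl (-0.90), Mre11a (-0.89) and Ube2cbp (-0.89). These genes were picked by r, which is therefore a description.

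Other genes of the type 2 cell were followed as lists. Of 15 other type 2 markers, 14 were lower and 1 higher in the PPARaDN groups averaged over genotypes, with a median log2 fold change of -0.69, and 6 had an unadjusted p under 0.05, all lower. Of all 16527 genes, 812 were lower with such a p. Cxcl15, a lung chemokine, was at -1.23 (SE 0.262, adjusted p = 0.183) and Chil1, a chitinase-like protein, at -1.80 (SE 0.568, adjusted p = 0.344), while Cd74, the MHC class II invariant chain, was at -0.61 (interval -1.37 to 0.16). Chil1 was at 5446, 5946 and 2703 CPM in KPG1 and 102, 306 and 931 CPM in KPG1_PPARaDN (log2 fold change -3.40), but at 2184, 512 and 2721 CPM in KP and 1457, 687 and 2552 CPM in KP_PPARaDN (log2 fold change -0.21), a difference between genotypes of -3.19 (edgeR interaction, adjusted p = 0.359). KPG1_PPARaDN replicate 1, lowest here too, was also low in Muc1, at 133 CPM. Of 10 regulators of the type 2 cell, 7 were lower and 3 higher (median -0.22). Among the regulators 5 had an unadjusted p under 0.05, all lower, beside the same 812 of all genes. Those named by their level were Fgfr2, the receptor that keeps type 2 cells, at -0.70 (adjusted p = 0.295), Cebpa, a factor of the mature type 2 cell, at -0.70 (adjusted p = 0.31) and Tfcp2l1 at -0.11 (adjusted p = 0.949). Foxa1 was at 0.16 and Foxa2, which with Foxa1 acts beside NKX2-1, at -0.03.

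Other genes of surfactant processing were split between both directions, and those of lipid synthesis were more often lower. Of 10 genes for surfactant processing and lamellar bodies, 4 were lower and 6 higher (median 0.07), with Ctsh, the protease that trims pro-SP-B and pro-SP-C, at 0.38, the membrane protein Lamp1 at -0.11 and Adgrf5, a receptor that limits the surfactant pool, at -0.88 (adjusted p = 0.284). Of 19 genes for surfactant lipid synthesis, 13 were lower and 6 higher (median -0.15), with the desaturases Scd1 at -0.44 and Scd2 at 0.08 and the fatty acid synthase gene Fasn at -0.36. In this list 2 lower genes and 1 higher gene had an unadjusted p under 0.05, beside 812 and 850 of all 16527 genes. Acaca was farthest below 0, at -0.79 (SE 0.161, adjusted p = 0.18 by edgeR). No gene of these lists passed the adjusted threshold in any of the 7 comparisons.

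**Figure D5:**
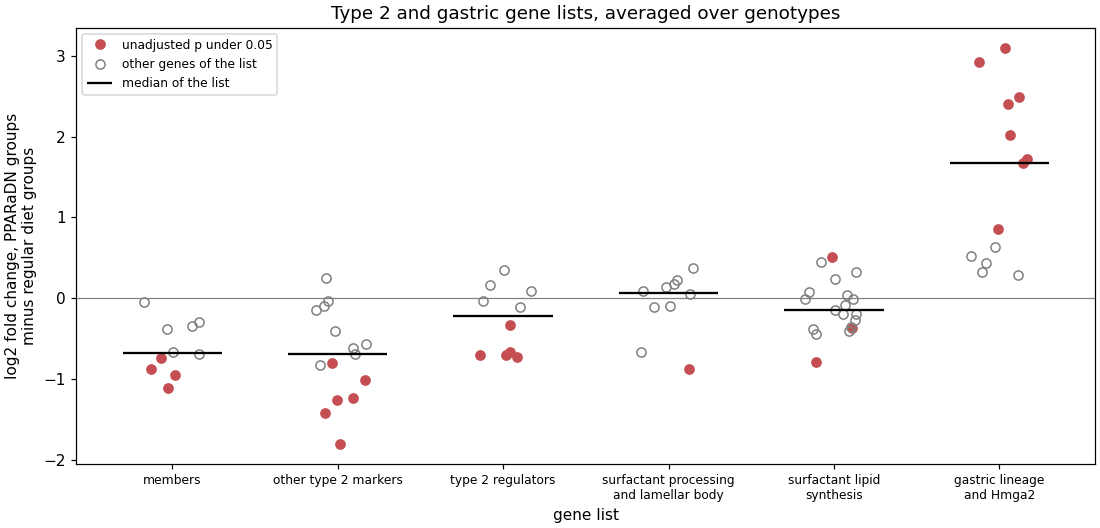
Log2 fold change in the PPARaDN groups against the regular diet groups, averaged over genotypes (vertical axis), for the genes of 6 lists (1 point per gene; filled points have an unadjusted p under 0.05, lines are list medians). Members and other type 2 markers have medians of -0.68 and -0.69, those of surfactant processing and lipid synthesis are 0.07 and -0.15, and the gastric list lies above it with a median of 1.67.

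Gastric lineage genes, which lung tumors without NKX2-1 can switch on, stood in the other direction. Of 14 such genes with Hmga2, 13 were tested and 13 were higher in the PPARaDN groups averaged over genotypes (median 1.67), 8 with an unadjusted p under 0.05 and 0 past the adjusted threshold. Of all 16527 genes, 850 were higher with such an unadjusted p. The gastric list, like the others, was chosen with earlier results of these data known. The most abundant were Gkn2 at 0.29, Ctse at 1.67 (SE 0.523, adjusted p = 0.343) and Hnf4a at 0.43 (SE 0.216, adjusted p = 0.543). Ctse, cathepsin E, was at 213, 42.5 and 79.5 CPM in KP, 720, 286 and 210 CPM in KP_PPARaDN, 77.8, 247 and 71.1 CPM in KPG1 and 642, 167 and 297 CPM in KPG1_PPARaDN. Hmga2, a chromatin protein of advanced KP tumors, was at 2.49 (SE 0.955, adjusted p = 0.419), with 0.132 to 9.74 CPM in the regular diet tumors and 0.872 to 17.7 CPM in the PPARaDN tumors. Single genes differed between genotypes. Hmga2 was at 0.61 in KP and 4.38 in KPG1, whereas Tff1 was at 3.57 and -0.13 and Krt20 at 3.36 and 0.68. Of the 13 genes, 13 were above 0 in KP, 7 with an unadjusted p under 0.05 (879 of all 16527 genes were higher with such a p). In KPG1 12 were above 0, 4 with such a p (1033 of all genes). Surfactant transcripts were still abundant beside these genes: in KP_PPARaDN replicate 1, where Ctse was highest at 720 CPM, Sftpc was at 5540 CPM, its lowest value of the series.

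Markers of other cells were measured in the same libraries. In the averaged PPARaDN comparison, 8 of 10 type 1 genes were lower (median -0.18, Ager at 154 to 1693 CPM over the 12 tumors, Aqp5 at 10.3 to 874 CPM and Clic5 at 7.55 to 731 CPM), 6 of 8 club cell genes were lower (median -0.43, Hp at 19.4 to 1901 CPM, Cbr2 at 7.62 to 413 CPM, Cyp2f2 at 4.67 to 316 CPM) and 5 of 8 ciliated cell genes were lower (median -0.19, Tppp3 at 6.68 to 46.4 CPM, Cfap126 and Ccdc39 under 6 CPM). KP replicate 2, the KP tumor low in Sftpd, Sftpc and Abca3, held the lowest Ager, Aqp5, Clic5 and Hp of the 12. All 8 epithelial genes were higher (median 0.27, Krt18 at 491 to 2011 CPM and Krt8 at 512 to 1595 CPM), 5 of 7 fibroblast genes were higher (median 0.17, with Col1a2, Col3a1 and Col1a1 at 25.8 to 218 CPM) and 7 of 7 endothelial genes were lower (median -0.27, with Pecam1, Cdh5 and Kdr at 15.1 to 158 CPM). Of 6 leukocyte genes 4 were tested, of which Ptprc (-0.47), Csf1r (-0.16) and Itgam (-0.22) were lower and Cd68 (0.07) was higher, the last 3 all under 24 CPM. The 6 alveolar macrophage genes were all above 0, most of all Mrc1 (1.27, at 2.90 to 51.7 CPM) and Pparg (0.55, at 40.1 to 92.3 CPM). Siglecf (0.33), Marco (0.20), Chil3 (0.05) and Ear2 (0.02) had intervals that spanned 0. Chil3 was at up to 101 CPM, and Marco and Siglecf were under 1.2 CPM. Of 5 erythroid genes 4 were higher, among them Hbb-bs (1.24, at 101 to 761 CPM) and Hba-a1 (1.05, at 24.6 to 277 CPM), and Hbb-bt was lower (-0.43, at 90.9 to 552 CPM). Hba-a2, whose near-identical copy Hba-a1 shares its reads, was the 1 gene of all lists past the threshold. It was at 29.1 to 122 CPM in KPG1_PPARaDN against 0.103 to 0.529 CPM in KPG1 (edgeR adjusted p = 0.0105). KPG1 was the low group, as Hba-a2 was also lower in KPG1 than in KP (log2 fold change -5.99, edgeR adjusted p = 0.0248). In KPG1_PPARaDN against KP_PPARaDN its log2 fold change was 0.21, and in KP_PPARaDN against KP it was 1.52. The average covers different values in the 2 genotypes. In KP, 6 of 7 fibroblast genes (median 1.15, 3 with an unadjusted p under 0.05, against 11.4% of all genes), 7 of 10 type 1 genes (median 0.29), 6 of 7 endothelial genes (median 0.14) and 2 of 6 macrophage genes (median -0.27) were higher in KP_PPARaDN. In KPG1 it was 1 of 7 (median -0.20), 2 of 10 (median -0.52), 0 of 7 (median -0.67) and 6 of 6 (median 1.02). The part of these cells in the members' levels was not tested.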

How the data were processed

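The authors sequenced stranded, poly(A)-selected RNA on a NextSeq 500 (single-end reads), trimmed reads with cutadapt (1.4.2 in the submitters' processing notes) and aligned them to mm10 with HISAT2. They deposited raw counts of reads per gene (featureCounts 1.4.4 in the same notes), which for 12 of 12 tumors equal the combined table. Unmatched columns numbered 0. A table of log2 values that the authors also deposited was not used. From the counts, edgeR 4.0.16 (TMM, filterByExpr by group, quasi-likelihood test) under R 4.3.3 fitted the 12 tumors together, without a block, and the p-values of 16527 genes were adjusted by Benjamini-Hochberg. Where the authors used limma voom on genes with a mean of at least 20 TPM, that fit is an alternative (limma 3.58.1), as are DESeq2 1.42.0, its size factors, no filter, the compared groups alone, sex, the replicate block, tumors of a mouse summed and each tumor left out. Correlations of log2 CPM (prior count 2) used 100000 permutations. Exon lengths and positions are from GENCODE M21, promoters from RefSeq. On simulated counts for KP_PPARaDN against KP with 16527 genes, the test recovered 4.48% of 2-fold, 62.7% of 4-fold and 90.9% of 8-fold changes. The members and the 14 other gene lists (143 genes with the members, all matched, 5 by identifier) were chosen with earlier results of these data known. Named were the members, Slc2a1 and Ppara, the 3 most abundant genes of each other list, genes past the threshold, Hmga2 and Hnf4a, and the 5 genes at each end of the ranking by correlation. Other genes were chosen after their values were seen. Intervals are 95% intervals of the fit.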

Additional observations from a re-analysis of the deposited data

How the results depend on the processing

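The members called numbered 0 in all 7 comparisons under every alternative except DESeq2, which called 1, Lamp3, in KPG1_PPARaDN minus KPG1 (log2 fold change -1.89, adjusted p = 0.0280), and 0 of the 9 relations with Nkx2-1 passed under any alternative. The members' median moved by more than the spread of 0.537 between tumors only in KPG1_PPARaDN minus KP_PPARaDN, from -0.20 to 0.42 without KP_PPARaDN replicate 3 (range over single tumors left out -0.50 to 0.42).

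Counts of all genes called were unstable. In the order KP_PPARaDN minus KP, KPG1_PPARaDN minus KPG1, KPG1 minus KP, KPG1_PPARaDN minus KP_PPARaDN, the interaction, the diet average and the genotype average, they were 1, 1, 6, 5, 0, 3 and 8 in the reported fit and 372, 211, 60, 155, 286, 288 and 39 with DESeq2. The replicate block gave 0 and 2 in the PPARaDN comparisons in KP and KPG1, 3 in KPG1_PPARaDN minus KP_PPARaDN and 5 in the genotype average. Sex as a covariate gave 0 in KP_PPARaDN minus KP and 2 in each pairwise genotype comparison. Summed tumors of a mouse gave 0, 0, 2 and 2 in the 4 pairwise comparisons and 3 in the genotype average, and the compared groups alone gave 0, 0 and 10 in the pairwise comparisons other than KPG1_PPARaDN minus KP_PPARaDN. With no filter KP_PPARaDN minus KP and the diet average were at 2 and 5, and limma voom gave 0 in KPG1_PPARaDN minus KPG1 and, on genes of at least 20 TPM, 4 in the genotype average. The cause of these differences was not tested. Leaving out single tumors gave 0 to 1, 0 to 2, 2 to 6, 2 to 10, 0, 2 to 13 and 6 to 11.

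Replicate numbers did not pair the tumors (same-numbered pairs correlated at -0.19 to 0.127, other pairs at -0.232 to 0.23, and 4 of 12 tumors correlated best with their own number), and the replicate block called 0 members. Signs of members that did not pass turned in places, most with sex as a covariate (4 in KPG1 minus KP, 5 in the interaction). Counting error is small for these genes, and each group holds 3 tumors.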
